A study of Mus musculus with 768 samples.

Results

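Expression of Lgr5, its family members Lgr4 and Lgr6, and the supporting cell markers Slc1a3, Prox1 and Ngfr was followed in single cells of mouse cochlear organoids. The genes were chosen by symbol, and are 6 of the 52636 genes listed in the deposited count tables and 6 of the 17466 genes that entered the tests between days. Cells of the greater epithelial ridge, the epithelium that lies medial to the hair cells of the cochlear duct, had been enriched by flow cytometry from mice on postnatal day 2 and grown into organoids. Organoids were taken apart on culture day 1, 3 or 7, their cells were collected singly by micropipette, and each became 1 SmartSeq2 library (cDNA of the whole transcript, with no molecular identifiers). The labels give a replicate number to each of the 768 cells, which was taken as the culture: 3 cultures on day 1 (192 cells), 3 on day 3 (255 cells) and 5 on day 7 (321 cells). All groups carried the same alleles (Fgfr3-CreERT2, the Ai14-tdTomato reporter and Sox2-GFP) and the same medium, with EGF, FGF2, IGF1, CHIR99021, valproic acid, 2-phospho-L-ascorbic acid and the TGFß receptor inhibitor 616452 on each day. The Cre of these mice is driven by Fgfr3, and the induction of the Cre is not given in the sources used here. The labels do not say whether cultures came from separate animals, so the p-values below measure the spread between these cultures.

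Lgr4, Lgr5 and Lgr6 are receptors of the R-spondins. A bound receptor takes the ubiquitin ligases Rnf43 and Znrf3 away from the Frizzled receptors and so strengthens Wnt signalling, and the compound CHIR99021 of the culture medium acts on the same pathway further down by inhibiting the kinase GSK3. In the newborn cochlea Lgr5 is known as a marker of supporting cells and of part of the greater epithelial ridge that can divide and form hair cells. Slc1a3 encodes a glutamate and aspartate transporter of glia and of the supporting cells around the inner hair cells, Ngfr the p75 neurotrophin receptor known from pillar cells, and Prox1 a homeobox transcription factor of pillar and Deiters' cells.

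Between day 1 and day 7, Lgr5 and Slc1a3 fell, by 5.25-fold and 2.51-fold, and Lgr4 had a log2 fold change of -0.18 that passed no test. Lgr6 and Ngfr varied widely between cultures of 1 day and were called in no comparison of days. Prox1 had reads in 8 of the 711 cells retained after filtering. Levels are given as CPM (counts per unit of library size, in the usual scaling of edgeR), the reads of a gene summed over the retained cells of a culture and divided by the TMM-scaled library size. Called means a Benjamini-Hochberg adjusted p under 0.05 over all 17466 genes, with edgeR's quasi-likelihood test.

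The retained cells numbered 182, 228 and 301 on days 1, 3 and 7, and a culture held between 26391412 and 72483565 reads on genes. No 2 cells had identical counts. The share of cells counted as cycling (reads for 3 or more of the mitotic genes Tpx2, Ccnb2, Birc5, Cdk1, Top2a and Mki67) ran from 15.3% to 23.7% in the cultures of day 1, from 54.2% to 67.9% on day 3 and from 25.3% to 88.4% on day 7. Day 7 culture 5 stood highest in its median share of mitochondrial reads, 6.76% against 2.72% for the lowest culture. The 9 greater epithelial ridge markers summed to between 9521 and 13893 CPM on day 1 and to between 2306 and 4190 CPM on day 7. By edgeR 2 of the 9 were called lower on day 7 against day 1, beside 3.56% of all genes tested. Of the 9, 2 had a log2 fold change above 0 in that comparison, and 6 did on day 7 against day 3. The 4 epithelial markers summed to between 2915 and 4973 CPM on day 1, 2982 and 4920 on day 3 and 1566 and 2456 on day 7, with 2 of 4 called lower on day 7 against day 1. The 4 neuronal markers summed to between 17.3 and 32.9 CPM on day 1 and to between 0.589 and 9.34 on day 7, with 2 of the 3 tested called lower. Each of these sums was lower on day 7 than on day 1, as were Lgr5 and Slc1a3. On day 3 the ridge sum ran from 3826 to 7623 CPM and the neuronal sum from 10.5 to 38.1 CPM. The epithelial and neuronal sums of day 3 thus overlapped those of day 1. The part of these sums in the values below was not tested. Of the glial markers, which bear on Slc1a3 and Ngfr, 6 in number, Foxd3 and Cdh19 were at 0 on every day and the sum ran from 18.6 to 59.6 CPM; the sum for 7 hair cell markers ran from 28.9 to 62.9 CPM on day 1, up to 192 CPM on day 3 and from 21.5 to 40.5 CPM on day 7. The cells were deposited in 2 files, the first with day 7 cultures 1 to 4 and culture 1 of days 1 and 3, the second with the other 5 cultures.

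Among the receptors, Lgr5 (ENSMUSG00000020140.15, minus strand of chr10:115450311-115587780, GRCm38) showed the widest range between days. On day 1 its level was 119 CPM in culture 1, 116 CPM in culture 2 and 188 CPM in culture 3. On day 3 it was 87.0, 45.8 and 86.7 CPM in cultures 1 to 3, and 24.04, 28.9, 39.8, 15.6 and 25.8 CPM in cultures 1 to 5 of day 7. The 3 days did not overlap: every day 3 culture lay under every day 1 culture, and every day 7 culture under every day 3 culture. From day 1 to day 7, Lgr5 fell by 2.39 on the log2 scale (SE 0.30, adjusted p = 0.00158, edgeR). Against day 3 it fell by 1.45 (SE 0.30, adjusted p = 0.0426, edgeR). The step from day 1 to day 3 had a log2 fold change of -0.95 (SE 0.34) and was not called (adjusted p = 0.44, edgeR). The call of day 7 against day 1 held without each of the 11 cultures in turn (adjusted p between 0.00159 and 0.009). The call of day 7 against day 3 held only without day 7 culture 3, with adjusted p between 0.0294 and 0.181 over the 11 fits.

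The smaller amount of Lgr5 went with fewer cells that had a read. Shares of cells were taken after thinning the 695 cells with at least 200000 reads to that depth, and their intervals cover counting error only. On day 1 an Lgr5 read was present in 65.4%, 61.2% and 76.3% of the cells of cultures 1 to 3, and on day 3 in 60.7%, 47.0% and 62.5%. On day 7 it was present in 43.6%, 29.7%, 40.6%, 28.2% and 26.7% of the cells of cultures 1 to 5. Exact 95% Clopper-Pearson intervals were as wide as 27.8% to 60.4% for the 39 cells of day 7 culture 1. The mean share was 67.6% ± 7.81 for the day 1 cultures (SD, n = 3), 56.7% ± 8.498 for those of day 3 (n = 3) and 33.8% ± 7.75 for those of day 7 (n = 5). Day 7 minus day 1 was -33.9 percentage points and day 7 minus day 3 was -23.0, each with an exact two-sided permutation p of 0.0179, the smallest that 3 cultures against 5 can give (0.0268 adjusted over the 3 pairs of days). The difference of day 3 from day 1 was -10.9 points, with an exact permutation p of 0.2, where 3 cultures against 3 cannot go below 0.1. Without thinning, both adjusted values for day 7 missed the threshold (0.0536 and 0.1), while the differences were -32.2 and -17.3 points. Both values were also over 0.05 without day 7 culture 3 (0.0857 each) and without any 1 culture of day 1 or day 3 (0.0536 to 0.0714).

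Among cells that had an Lgr5 read before thinning, the median level was lower in the day 7 cultures than in those of day 1. Their median CPM per culture lay between 94.3 and 117 on day 1, between 60.8 and 121 on day 3 and between 3.54 and 74.8 on day 7, so that day 7 did not overlap day 1, while day 3 overlapped both other days and its culture 1 stood highest of all. The lowest of these medians was that of day 7 culture 4, where 33 retained cells had a read before thinning and 22 after it. Day 7 cells also had more reads, with a median per culture of 828714 to 971248 against 647980 to 763364 on day 1. The part of depth in these medians was not tested, and their overlap was not counted over all genes. The median over all retained cells was 50.5 CPM on day 1 and 18.6 CPM on day 3, and more than 1 in 2 cells had no read on day 7, where the median was 0. The cell with the most Lgr5 held 1661 CPM on day 1, 653 CPM on day 3 and 438 CPM on day 7. Between 4 and 12 cells of a culture, or 3 in day 7 culture 2, carried 50% of the Lgr5 CPM summed over its cells.

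**Figure D1:**
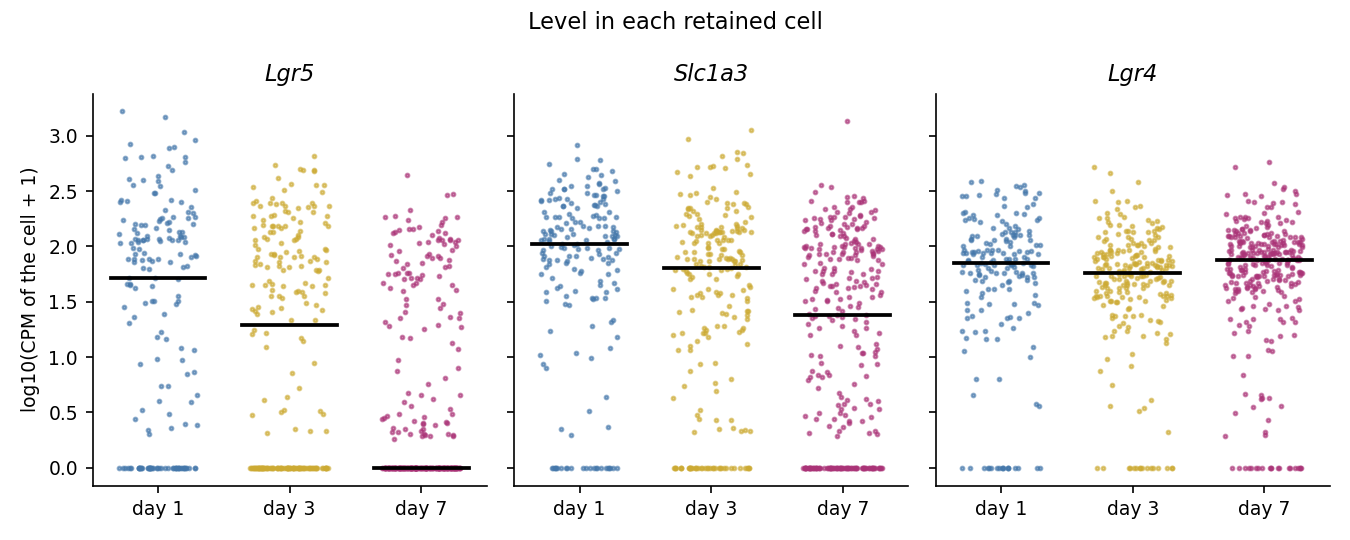
Each point is 1 retained cell, on the y axis the log10 of its CPM plus 1 for Lgr5, Slc1a3 and Lgr4, and on the x axis the culture day, with the median as a bar. The Lgr5 median goes from 50.5 CPM on day 1 to 0 on day 7, while the Lgr4 medians lie between 56.8 and 73.8 CPM.

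Lgr4 (ENSMUSG00000050199.13, plus strand of chr2:109917647-110014257) is the broadly expressed member of the receptor family. It was at 72.2, 89.4 and 111 CPM in the day 1 cultures, at 67.1, 72.3 and 64.8 CPM in the day 3 cultures and at 83.6, 55.96, 74.4, 78.1 and 107 CPM in the day 7 cultures. The days overlapped in every pair. The log2 fold change of day 7 against day 1 was -0.18 (SE 0.21, adjusted p = 0.654, edgeR), and that of day 7 against day 3 was 0.23 (SE 0.21, adjusted p = 0.797). A read was present in 88.6% ± 1.88 of the cells on day 1, 91.4% ± 4.55 on day 3 and 90.9% ± 4.99 on day 7 (SD over 3, 3 and 5 cultures). Lgr4 was thus found in about 9 of 10 cells on each day, the largest share of the 6 genes.

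Lgr6 (ENSMUSG00000042793.13, minus strand of chr1:134983301-135105276), the third receptor, differed more between cultures than between days. It was at 27.9, 9.15 and 41.2 CPM on day 1, at 22.1, 8.75 and 10.3 CPM on day 3 and at 18.3, 8.45, 28.8, 22.3 and 3.85 CPM on day 7. The highest and the lowest culture of day 7 differed more than the means of any 2 days, 26.1 CPM on day 1, 13.7 on day 3 and 16.3 on day 7. No comparison called it (adjusted p between 0.552 and 0.946, edgeR). Its share of cells was 41.6% ± 16.3 on day 1, 24.8% ± 5.04 on day 3 and 23.1% ± 14.4 on day 7, with 5.33% in day 7 culture 5 (4 of 75 cells) and 55.3% in day 1 culture 3.

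Slc1a3 (ENSMUSG00000005360.14, minus strand of chr15:8634124-8710764), the glutamate transporter, fell together with Lgr5. It was at 140, 150 and 146 CPM in the day 1 cultures, at 108, 93.0 and 137 CPM in the day 3 cultures and at 39.7, 54.6, 55.9, 74.7 and 64.2 CPM in the day 7 cultures. The day 1 cultures agreed within 5.11 CPM (SD, n = 3), and no 2 days overlapped. Slc1a3 fell by 1.33 on the log2 scale from day 1 to day 7 (SE 0.20, adjusted p = 0.00353, edgeR), and the call held without each culture in turn (adjusted p between 0.00352 and 0.0186). Against day 3 it fell by 0.96 (SE 0.20, adjusted p = 0.0474, edgeR), a call that held only without day 7 culture 4 (adjusted p between 0.0372 and 0.245 over the 11 fits). Day 3 against day 1 was not called (log2 fold change -0.37, SE 0.23, adjusted p = 0.703, edgeR).

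The share of cells with an Slc1a3 read was 82.7%, 89.4% and 81.6% on day 1 and 73.8%, 80.3% and 79.2% on day 3. On day 7 it was 53.8%, 59.5%, 71.0%, 67.9% and 60.0%. As with the level, no culture of a later day reached one of an earlier day. After thinning, Slc1a3 was still found in most cells of every day 7 culture, whereas Lgr5 was found in under 50% of them in each. Without thinning, the Lgr5 share of day 7 culture 3 was 51.4%. In cells with a read before thinning, the median CPM per culture was 103 to 149 on day 1, 72.3 to 93.1 on day 3 and 33.8 to 83.0 on day 7.

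Promoter sequences were taken from a set of windows at RefSeq gene starts (GRCm38.p6). The set used held an entry for 5 of the 6 genes and none for Lgr5, whose promoter was therefore not examined. Slc1a3 and Lgr4 were each found in most cells on day 1, and the difference between their changes was not tested. Shown are the windows of Slc1a3, called lower on day 7 against day 1, and of Lgr4, which was not called. Each is the 250 bases before the start of the gene in RefSeq, which for Slc1a3 lies outside the GENCODE span given above, 5′ to 3′ on the strand of the gene, with CpG dinucleotides in capitals; the first is chr15:8710808-8711057 (minus strand) and the second chr2:109917397-109917646 (plus strand).
Slc1a3: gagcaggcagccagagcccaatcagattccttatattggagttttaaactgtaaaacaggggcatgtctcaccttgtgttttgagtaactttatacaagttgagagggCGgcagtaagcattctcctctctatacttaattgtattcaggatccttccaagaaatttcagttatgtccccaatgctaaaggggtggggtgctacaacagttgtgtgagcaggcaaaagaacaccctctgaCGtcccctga
Lgr4: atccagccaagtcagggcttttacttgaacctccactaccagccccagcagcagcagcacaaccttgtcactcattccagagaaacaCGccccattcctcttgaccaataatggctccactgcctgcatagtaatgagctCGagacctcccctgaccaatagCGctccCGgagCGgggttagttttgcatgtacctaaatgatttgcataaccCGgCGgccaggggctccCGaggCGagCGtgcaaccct
The Slc1a3 window had 2 CpG dinucleotides and 44.8% G and C, and that of Lgr4 10 and 55.6%. The median over 32851 windows was 6 and 52.4%. The windows of Lgr6, Ngfr and Prox1 (2 starts) held 11 to 20 CpG dinucleotides. The motif CTTTGAT of the Wnt effectors TCF and LEF, or ATCAAAG on the other strand, was in none of the 6 windows of these 5 genes and in 3.21% of all windows. Both are descriptions of these letters only.

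Both calls of day 7 against day 1 were lost within a single file, where 1 of the days has 1 culture. Lgr5 had a log2 fold change of -2.17 in the first file (adjusted p = 0.151, edgeR) and of -2.56 in the second (adjusted p = 0.0788). Slc1a3 had -1.36 in the first file (adjusted p = 0.193, edgeR) and -1.20 in the second (adjusted p = 0.16). With the file as a covariate both remained called (adjusted p = 0.00467 for Lgr5 and 0.00946 for Slc1a3), and the step from day 3 to day 7 was then called for neither (adjusted p = 0.0838 and 0.104).

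**Figure D2:**
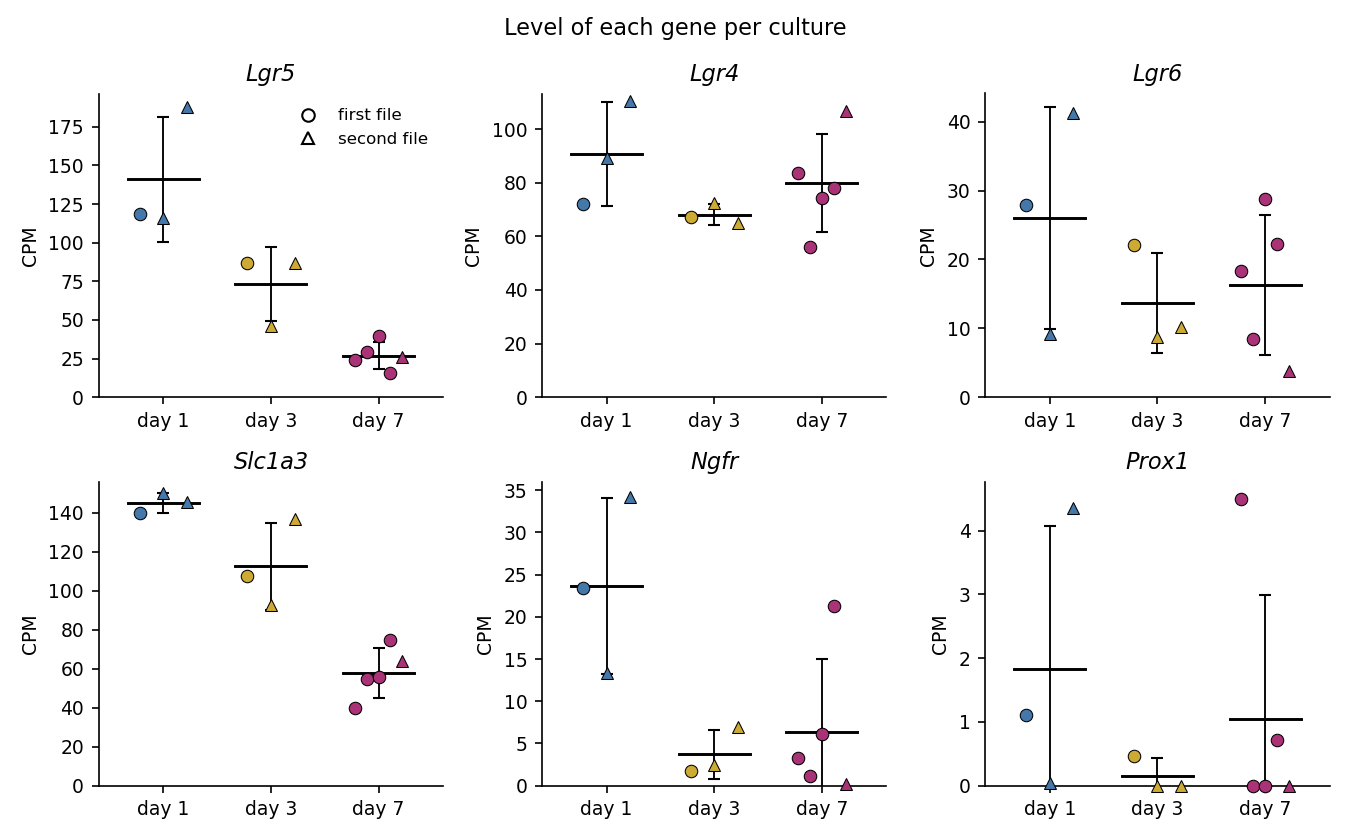
Each point is 1 culture, with its CPM on the y axis and the culture day on the x axis, in 1 panel per gene; circles are cultures of the first file and triangles those of the second, and bars are the mean ± SD (n = 3, 3 and 5; an SD that reaches under 0 is not drawn below the axis). Lgr5 and Slc1a3 step down without overlap between days, Lgr4 stays between 55.96 and 111 CPM, and Prox1 is at or near 0 in most cultures.

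Ngfr (ENSMUSG00000000120.6, minus strand of chr11:95568818-95587735), the neurotrophin receptor, had its highest values on day 1. It was at 23.4, 13.3 and 34.1 CPM on day 1, at 1.69, 2.44 and 6.97 CPM on day 3 and at 3.22, 1.19, 6.12, 21.2 and 0.24 CPM on day 7. All day 3 cultures lay under all day 1 cultures, and on day 7 all but culture 4 did. No comparison called it: the log2 fold change was -2.67 on day 3 (SE 1.17, adjusted p = 0.521, edgeR) and -1.88 on day 7 (SE 0.97, adjusted p = 0.261), each against day 1. A read was present in 23.1%, 25.9% and 39.5% of the day 1 cells, in 7.14%, 9.09% and 8.33% of the day 3 cells and in 7.69%, 2.70%, 14.5%, 19.2% and 1.33% of the day 7 cells. The shares of both later days lay under those of day 1 without overlap. In the cells with a read before thinning the median CPM per culture overlapped, from 23.6 to 50.5 on day 1 and from 16.6 to 86.0 on day 7.

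Prox1 (ENSMUSG00000010175.13, minus strand of chr1:190118035-190170714), the transcription factor of pillar and Deiters' cells, was close to absent. It had a read in 3 of 182 cells on day 1, 2 of 228 on day 3 and 3 of 301 on day 7. Over the 695 thinned cells the share was 1.15% (exact 95% Clopper-Pearson interval 0.498% to 2.26%). No read was found in 5 of the 11 cultures, 2 of day 3 and 3 of day 7, where a count of 0, taken as at most 3 cells, allows a share of up to 4% in the largest (75 cells) and 8.11% in the smallest (37 cells). The exact 95% Clopper-Pearson upper bounds for the same cultures were 4.80% and 9.49%. Of its 380 reads in all retained cells, 145 came from 2 cells of day 7 culture 1 and 115 from 1 cell of day 1 culture 3. No comparison called it (adjusted p between 0.779 and 0.868, edgeR), and a fitted fold change of so few reads depends on the settings of the fit. The antisense gene Prox1os, which overlaps its exons, had 0 reads.

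**Figure D3:**
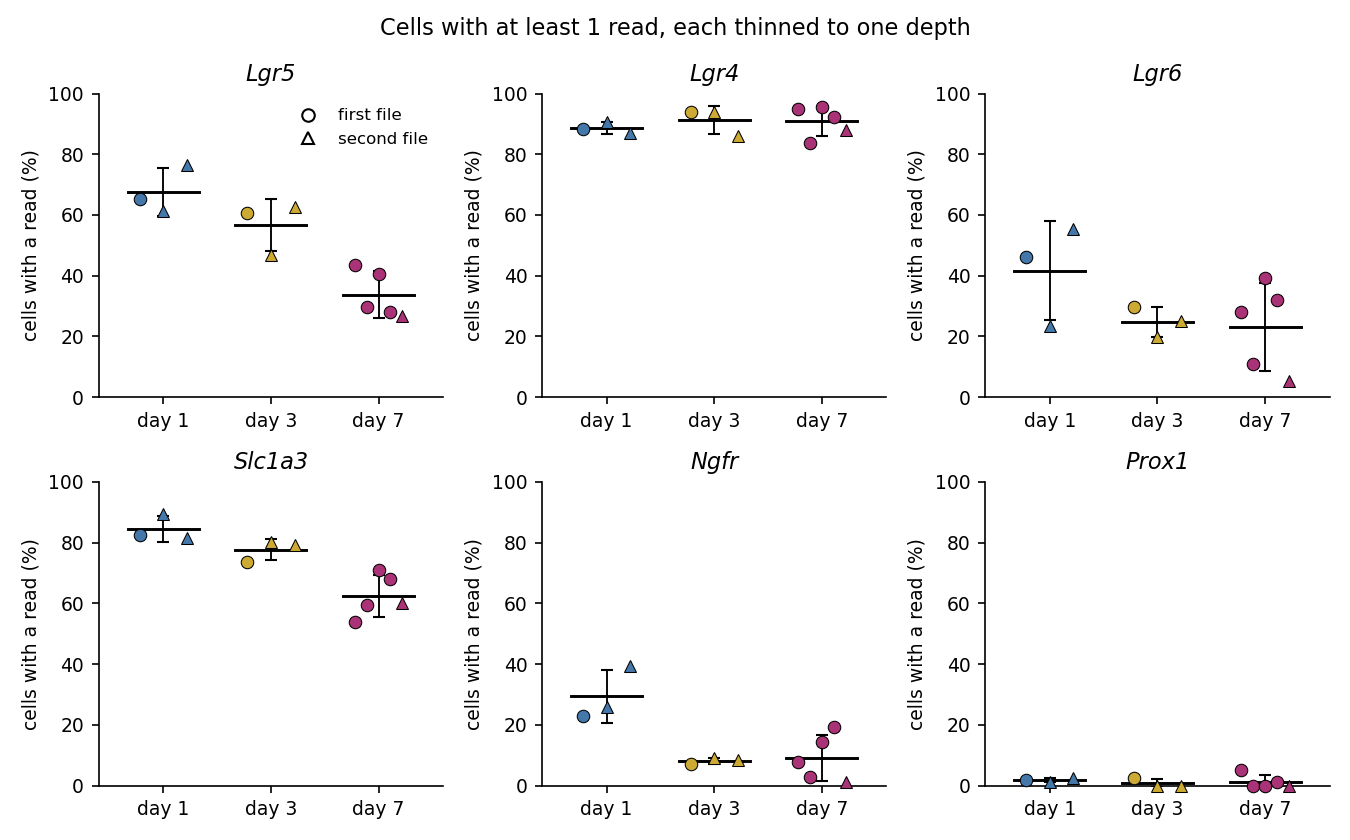
Each point is the percentage of cells of 1 culture with at least 1 read of the gene after thinning to 200000 reads (y axis), by culture day (x axis); circles are cultures of the first file and triangles those of the second, and bars are the mean ± SD. Lgr4 lies between 83.8% and 95.7% on all days, Lgr5 and Slc1a3 step down, and Ngfr lies higher on day 1 than on the other 2 days.

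Of the 6 genes, 2 were called on day 7 against day 1, both lower, beside 3.56% of all genes called lower and 3.55% called higher. On day 7 against day 3 the same 2 genes were called lower, beside 0.784% of all genes. These 2 comparisons share the day 7 cultures. None of the 6 was called on day 3 against day 1, where 0.0115% of all genes were called by edgeR. DESeq2 called none of the 6 there, beside 259 of the 17466 genes. By edgeR Lgr5 and Ngfr had an unadjusted p under 0.05 there, as did 1617 of all genes. In this fit all 6 had a negative log2 fold change against day 1, with a median of -0.94 on day 3 and -1.07 on day 7, beside medians of 0.02 and 0.00 over all genes tested. Cultures did not overlap in CPM, with the later day lower, for 3 genes on day 3 against day 1 (Lgr5, Slc1a3 and Ngfr; 8.11% of all genes), for 2 on day 7 against day 1 (Lgr5 and Slc1a3; 9.06%) and for the same 2 on day 7 against day 3 (5.14%). In shares of cells the genes were Slc1a3 and Ngfr on day 3 against day 1 (8.94% of all genes), Lgr5, Slc1a3 and Ngfr on day 7 against day 1 (10.2%), and Lgr5 and Slc1a3 on day 7 against day 3 (5.73%).

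**Figure D4:**
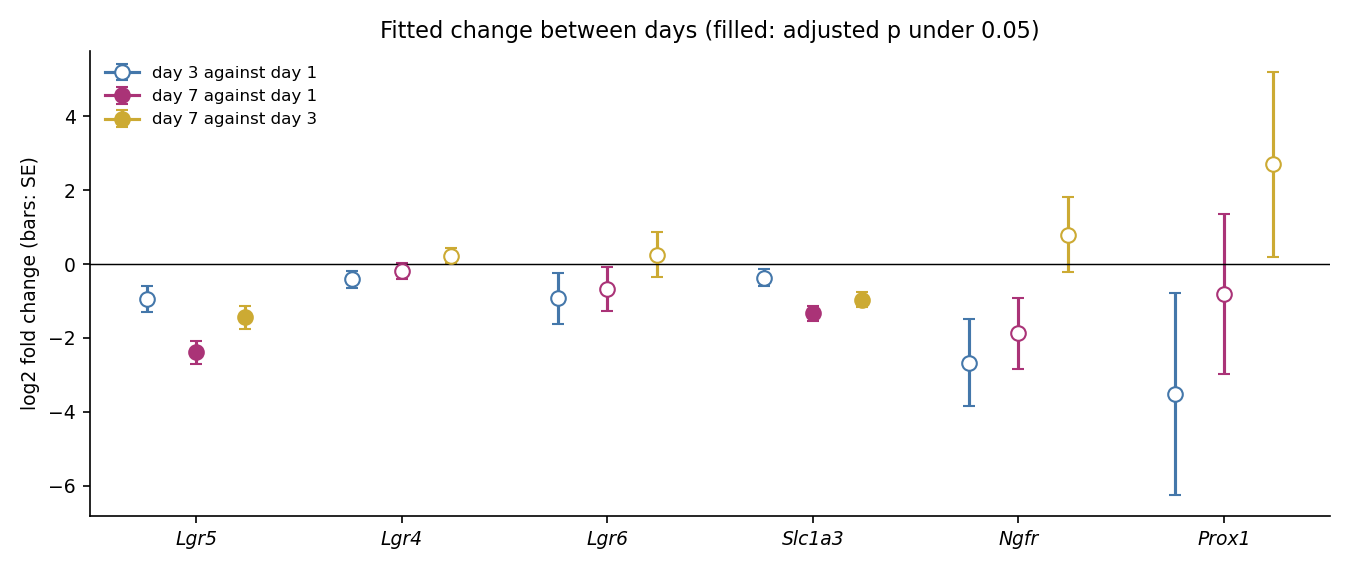
Fitted log2 fold change (y axis) of each of the 6 genes (x axis) in the 3 comparisons of days, with bars of 1 SE; filled points are called. The 4 filled points are those of Lgr5 and Slc1a3 on day 7, and the bars of Prox1 are the widest.

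Per length of annotated exon, the order of the genes changed between day 1 and day 7. On day 1, Slc1a3 had 17.0 ± 0.599 CPM per kb, Lgr4 15.4 ± 3.27 and Lgr5 13.7 ± 3.97 (SD, n = 3), which did not differ beyond their spread. Ngfr followed with 6.86 ± 3.02, Lgr6 with 3.81 ± 2.35 and Prox1 with 0.219 ± 0.268 CPM per kb. On day 7, Lgr4 stood first with 13.6 ± 3.12 CPM per kb, ahead of Slc1a3 with 6.77 ± 1.51 (n = 5). Lgr5 with 2.61 ± 0.852, Lgr6 with 2.38 ± 1.48 and Ngfr with 1.86 ± 2.49 CPM per kb then lay within 1 another's spread, above Prox1 with 0.124 ± 0.233. By this measure Lgr5 lay near Lgr4 on day 1 and near Lgr6 on day 7. The length is that of all annotated exons of a gene together, 10.264 kb for Lgr5, 5.884 kb for Lgr4 and 6.851 kb for Lgr6. The transcripts present can be shorter, so the order between genes depends on this choice of length.

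Cells that count as cycling held less Slc1a3 than the other cells of their culture. In the cycling cells Slc1a3 ran from 43.3 to 124 CPM over the 11 cultures with a median of 60.3, and in the other cells from 34.7 to 222 CPM with a median of 144. It was lower in the cycling cells of 10 of 11 cultures, by 0.81 on the log2 scale (SE 0.18, adjusted p = 0.00748, edgeR with the culture as a block). The largest gaps were those of day 3: 66.1 against 187 CPM in culture 1, 60.3 against 144 in culture 2 and 59.6 against 222 in culture 3. Fitted on the cultures of 1 day, a choice made after seeing the data, the log2 difference was -0.57 for day 1, -1.54 for day 3 and -0.51 for day 7. Of these the day 3 value alone was called (adjusted p = 0.0127, edgeR). In a fit of all days the difference of day 3 from day 1 was -0.98 (SE 0.38, adjusted p = 0.844, edgeR) and that of day 7 from day 3 was 1.07 (SE 0.34, adjusted p = 1.00), so that the days were not shown to differ.

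Lgr5 was also lower in cycling cells in 10 of 11 cultures. It ran from 13.8 to 96.3 CPM in cycling cells, with a median of 37.9, and from 20.7 to 232 CPM in the others, with a median of 72.3. The log2 difference was -0.66 (SE 0.19, adjusted p = 0.0293, edgeR). This call was lost under the stricter class of at least 5 of the 6 genes, without the culture as a block, and without any 1 of 5 cultures (day 1 cultures 2 and 3, day 3 cultures 2 and 3, day 7 culture 4), with adjusted p up to 0.563. The exception was day 3 culture 1, with 90.9 CPM in cycling and 72.3 CPM in other cells. Lgr4 had a log2 difference of -0.23 (adjusted p = 0.156), Lgr6 of 0.68 (adjusted p = 0.317) and Ngfr of 0.87 (adjusted p = 0.571), none of them called by edgeR, and Prox1 had too few reads to be tested. The 2 called genes stood beside 5.63% of 13221 genes called lower in cycling cells.

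**Figure D5:**
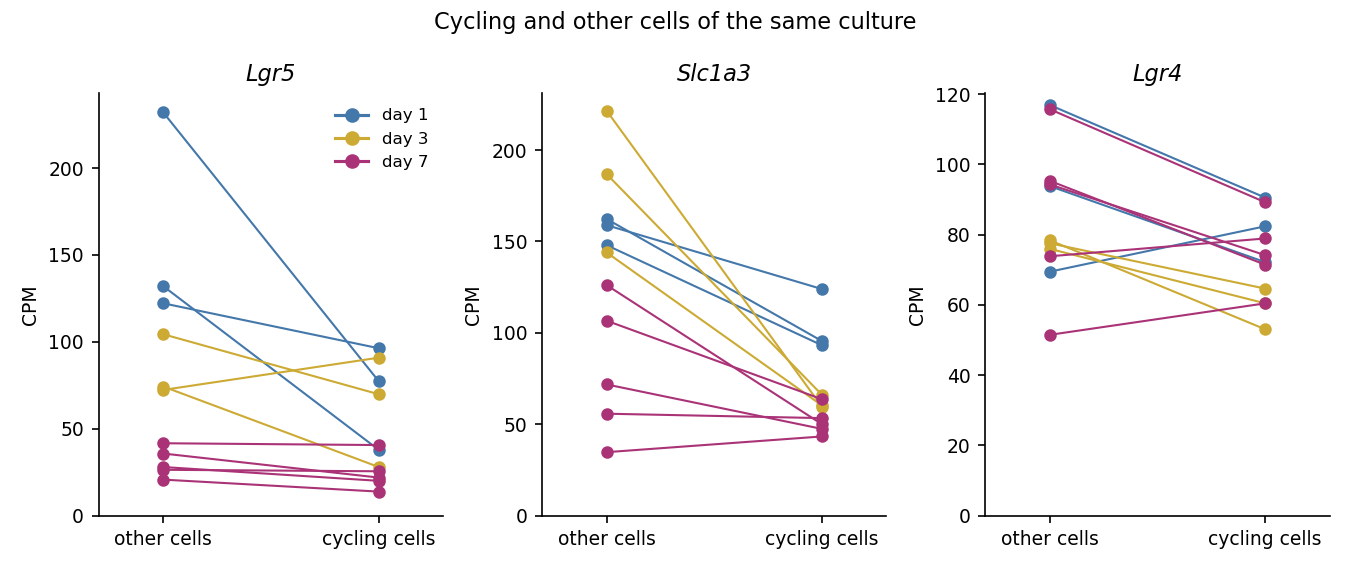
Lines join the CPM (y axis) of the cells that count as cycling and of the other cells of the same culture (x axis), coloured by day. Slc1a3 and Lgr5 are lower in the cycling cells of 10 of 11 cultures, and the day 3 lines of Slc1a3 start between 144 and 222 CPM in the other cells.

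Every day 3 and day 7 culture had a larger share of cycling cells than any day 1 culture. The days were therefore also compared in cells that do not count as cycling. A culture held between 8 (day 7 culture 3) and 72 (day 1 culture 2) such cells. Of 15270 genes, 120 were called on day 7 against day 1 and 70 on day 7 against day 3. With all retained cells these counts were 1241 and 169 of 17466, so calls were fewer over all genes. On day 7 Lgr5 then fell by 2.41 against day 1 (adjusted p = 0.00223, edgeR) and fell by 1.46 against day 3 (adjusted p = 0.0477). For Slc1a3 the log2 fold change was 0.23 on day 3 against day 1, above 0 and not below it (adjusted p = 1.00, edgeR). Slc1a3 had -0.99 on day 7 against day 1 (adjusted p = 0.196) and -1.22 on day 7 against day 3 (adjusted p = 0.159), and was called in neither. In these cells, Slc1a3 stood at 148, 162 and 159 CPM in the day 1 cultures, 187, 144 and 222 CPM in the day 3 cultures and 34.7, 55.8, 126, 107 and 71.8 CPM in the day 7 cultures.

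Cells with a read of tdTomato, the reporter of Fgfr3-driven recombination, were compared with the other cells of their culture in the 10 cultures that had at least 5 cells of each. Slc1a3 ran from 50.7 to 267 CPM in the cells with a tdTomato read, with a median of 134, and from 37.9 to 156 CPM in the others, with a median of 89.9. It was higher in 8 of 10 cultures, with a log2 difference of 0.64 (SE 0.17) that edgeR did not call (adjusted p = 0.52) and DESeq2 did (adjusted p = 0.0142). DESeq2 called 215 of the 13473 genes. Lgr5 was at a median of 90.0 CPM against 59.3 CPM and also higher in 8 of 10 cultures (log2 difference 0.27, SE 0.32, adjusted p = 0.859, edgeR). By edgeR none of the 5 genes tested was called, Slc1a3 alone had an unadjusted p under 0.05, and 0.00742% of 13473 genes were called.

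Reads of several of the genes in 1 cell were also counted. On day 1, 87.0% of the cells with an Lgr5 read had one of Slc1a3 against 83.3% of the cells without, higher in 2 of 3 cultures. These shares were 79.5% and 74.7% on day 3, higher in 3 of 3 cultures, and 70.4% and 60.5% on day 7, higher in 4 of 5. Ngfr was found in 33.04% of the cells with an Lgr5 read and in 18.3% of the others on day 1, higher in all 3 cultures. The Ngfr shares were 10.2% and 5.26% on day 3, also higher in all 3 cultures, and 9.18% and 10.5% on day 7, higher in 1 of 5. At 1 depth, cells with an Lgr5 read also had more genes with a read, a median of 6437 against 6028.5 on day 1 and of 6214.5 against 5662 on day 7, whose part in these shares was not tested. The most frequent number of the 6 genes with a read was 3 on day 1 (36.6% of cells) and on day 3 (39.6%), and 2 on day 7 (37.6%). Cells with 4 or more of them made up 34.9% of the cells on day 1, 15.3% on day 3 and 9.40% on day 7. These counts follow in part from the shares of the single genes, 90.8% for Lgr4 and 73.7% for Slc1a3 over all days. They were not set against an expectation from those shares.

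The other genes of R-spondin and Wnt reception, the Frizzleds, their co-receptors and the ligases beside them, stood beside Lgr5 with no called change. Of 18 genes 16 were tested, and edgeR called none in any comparison. On day 7 against day 1, 8 of them had an unadjusted p under 0.05 and DESeq2 called 5, beside 4123 and 2318 of all 17466 genes. On day 3 against day 1 these counts were 3 and 1, beside 1617 and 259 of all genes. For day 7 against day 3 they were 3 and 0, beside 2066 and 639. Znrf3, a ligase that the Lgr receptors take away from Frizzled, was at 94.4 ± 6.78 CPM on day 1 and 120 ± 22.3 on day 7, with a log2 fold change of 0.35 (SE 0.19, adjusted p = 0.276, edgeR). Fzd3, a Frizzled receptor, was at 96.2 ± 23.5 CPM on day 1 and 95.04 ± 29.8 on day 7. The median log2 fold change of the 16 genes was -0.29 on day 7 against day 1, beside 0.00 over all genes.

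Other supporting cell genes moved in both directions. Of 15 such genes 14 were tested, and on day 7 against day 1 edgeR called 2 that rose and 1 that fell, beside 3.55% of all genes called higher and 3.56% called lower. In that comparison 8 of the 14 had an unadjusted p under 0.05 and DESeq2 called 5, beside 4123 and 2318 of all 17466 genes. Sox9, a transcription factor of otic epithelium, was at 74.5 ± 10.2 CPM on day 1 and at 176 ± 34.6 CPM on day 7, and rose by 1.24 on the log2 scale (SE 0.20, adjusted p = 0.00471). Hey1, an effector of Notch signalling, was at 100.3 ± 14.5 and 330 ± 104 CPM and rose by 1.72 (SE 0.30, adjusted p = 0.00731). Fabp7, a fatty acid binding protein of glia and supporting cells, fell from 9.03 ± 6.73 to 0.112 ± 0.187 CPM (adjusted p = 0.0168). On day 7 against day 3 Hey1 alone was called by edgeR, and rose by 1.49 (SE 0.30, adjusted p = 0.0397), beside 0.183% of all genes called higher. There 6 of the 14 had an unadjusted p under 0.05 and DESeq2 called 5, beside 2066 and 639 of all 17466 genes. The median of the 14 genes was 0.78 on day 7 against day 1, above 0, whereas Lgr5 and Slc1a3 fell. On day 3 against day 1 edgeR called none of the 14, 1 had an unadjusted p under 0.05 and DESeq2 called none. Over all genes 1617 had such a p and DESeq2 called 259. The most abundant of them, the small heat shock protein Cryab and the gap junction protein Gjb2, then had log2 fold changes of 0.39 (SE 0.30) and -0.19 (SE 0.42).

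Of the genes of glutamate handling, 9 in number, 8 were tested and edgeR called none in any comparison. On day 7 against day 1, 3 had an unadjusted p under 0.05 and DESeq2 called 2, beside 4123 and 2318 of all 17466 genes. In each of the other 2 comparisons 1 had such a p, beside 1617 genes on day 3 against day 1 and 2066 on day 7 against day 3. In the last of these DESeq2 called 1 of the 8, beside 639 of all genes. Glud1, the mitochondrial glutamate dehydrogenase, was at 123 ± 9.11 CPM on day 1 and 110 ± 29.0 on day 7, and Glul, the glutamine synthetase, at 69.5 ± 6.57 and 53.2 ± 8.94 CPM. Slc1a3 was thus called by edgeR beside a list in which none was. DESeq2 and limma each called 2 of the 8 on day 7 against day 1, and limma called 1795 of all 17466 genes there. Of the 14 genes of neurotrophins, their receptors and receptor partners, 13 were tested. Ntrk3, the receptor of neurotrophin 3, was called on day 7 against day 1, with a mean of 2.29 CPM on day 1 (0.00 in 1 culture) and 0.00294 CPM on day 7 (adjusted p = 0.0283, edgeR). It was the 1 call among the 13 there, beside 3.56% of all genes called lower and 3.55% called higher. Of the 13, 6 had an unadjusted p under 0.05 and DESeq2 called 4, beside 4123 and 2318 of all genes. Bex3, an adaptor of the p75 receptor, fell from 509 ± 113 CPM on day 3 to 242 ± 40.2 CPM on day 7, by 1.07 on the log2 scale (SE 0.19, adjusted p = 0.0268, edgeR), the 1 call of 13 beside 0.784% of all genes called lower. On day 3 against day 1 edgeR called none of the 13, 2 had an unadjusted p under 0.05 and DESeq2 called none. Over all genes 1617 had such a p and DESeq2 called 259. Bex3 then had a log2 fold change of 0.48 (SE 0.22) and Maged1, also a partner of p75, of 0.14 (SE 0.22).

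The genes whose level followed that of Lgr5 most closely over the 11 cultures were taken from 6624 genes with a mean of at least 20 CPM, by the Pearson correlation of log2 CPM. They were Adamts2 (r = 0.92), which processes fibrillar collagens, Lgals1 (0.92), a galectin, Sdc2 (0.92), a heparan sulfate proteoglycan, Shisa2 (0.92) and Klhl14 (0.92). Lgals1 went from 939 ± 202 CPM on day 1 to 388 ± 79.5 on day 3 and 71.3 ± 20.1 on day 7, and Adamts2 from 109 ± 8.73 to 69.2 ± 9.52 and 28.8 ± 7.57. The genes most like Slc1a3 were Cmtm3 (r = 0.96), Airn (0.96), Rassf9 (0.95), Plet1 (0.95) and Serpinf1 (0.94). Plet1, a surface protein of epithelial progenitors, went from 95.9 ± 3.31 CPM on day 1 to 50.1 ± 7.63 on day 3 and 17.7 ± 4.61 on day 7. Slc1a3 and Lgr5 had r = 0.86 with each other, and 52 genes were closer to Lgr5. Lgr4 had r = 0.16 with Lgr5, Lgr6 0.35 and Ngfr 0.48. The 11 cultures fall into 3 days, so these values mostly describe the steps between days.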

How the data were processed

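The authors deposited expected counts (estimated reads per gene and cell, not normalised) for 768 cells, and a fractional part was found in 10.6% of the nonzero values. Per the submitters' processing notes, STAR 2.5.3a, RSEM 1.3.0 and the builds mm10 and GRCm38 were used, with no role given for them. Annotation release and strand setting are not given in the sources used here. RSEM-type counts share reads of repeated sequence by estimate; of the 50-base windows of the 6 genes' transcripts, 1.00% at most were found in another gene of GENCODE M21.

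After rounding to whole reads, 57 cells were dropped that had under 50000 gene reads, under 1500 detected genes or over 20% mitochondrial reads. Spike-in and transgene rows stayed out of library sizes. Counts were summed over the retained cells of each culture and compared by edgeR (version 4.0.16, R 4.3.3; filterByExpr by day, TMM, 1 quasi-likelihood fit over the 11 cultures, Benjamini-Hochberg adjustment). Cycling and tdTomato classes were summed per culture and fitted with the culture as a block. On simulated counts for day 7 against day 1 (16660 genes), edgeR called 5, 39, 49 and 49 of 50 genes changed 2-, 4-, 8- and 16-fold, and 5 unchanged genes. DESeq2 1.42.0 and limma 3.58.1 (log2 of the mean CPM per cell plus 1) were alternatives.

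Lgr5 shares were compared with exact permutation tests over cultures. The 6 genes, the gene lists and the tests were chosen with earlier results of these data known. From each list, the called genes were named, at most 4 by adjusted p, or else the 2 with the highest mean CPM.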

Additional observations from a re-analysis of the deposited data

Results flagged for a closer look

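In groups of 5 day 7 cultures, 3 values stood apart from the other cultures of their day by the size of the gap to the nearest one (Dixon's criterion, 12 groups tested). Chance alone gives such a gap in about 1 in 20 groups of normally spread values. Prox1 was at 0 in 3 of the 5 day 7 cultures, and its 2 flagged values come from the same 2 cells. The rate can therefore not be set against the 3 flagged values. Prox1 was at 4.49 CPM in day 7 culture 1, with reads in 2 of 39 cells, and its share of cells was 5.13% there, against 0.721 CPM and 1.28% for the next culture. Ngfr was at 21.2 CPM in day 7 culture 4, against 6.12 CPM in the next culture, with reads in 16 of 78 retained cells.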

How the results depend on the processing

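Over 24 alternative fits of the days, the count of called genes among the 6 stayed at 0 on day 3 against day 1. On day 7 against day 1 it was 2 without each culture in turn, 1 in cells not counted as cycling and 0 in the first or the second file alone, where fewer cultures were compared. On day 7 against day 3 it was 1 with limma, in non-cycling cells and with cells thinned to 1 depth, 0 with the file as a covariate and in either file alone, and 0 to 1 without each culture. The cause of these changes was not tested. Signs turned only for values that were not called: Slc1a3 on day 3 against day 1 (0.23 in non-cycling cells), Lgr4 on day 7 against day 1 (0.10 in the second file), Prox1 on day 7 against day 1 (0.19 in the first file, -3.31 to 0.86 without each culture) and, on day 7 against day 3, Lgr6 (-0.32 in non-cycling cells, -0.38 with the file as a covariate, -1.28 and -0.17 in the second and first file, -0.049 to 0.75 without each culture) and Ngfr (-4.26 in the second file, -0.47 to 1.63 without each culture).

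The Lgr5 share on day 7 differed from day 1 by -32.2 points unthinned and -31.4 thinned to 100000 reads, and from day 3 by -17.3 and -21.7, each with an adjusted exact permutation p over 0.05. Without each culture the differences ran from -37.1 to -29.5 and from -27.9 to -20.1; leaving out a culture of day 1 or 3, or day 7 culture 3, took both adjusted p over 0.05, and the former raises the smallest possible p to 0.0476. Among cycling cells, 1 gene was called without the replicate block and in the stricter class, 1 to 2 without each culture, and 0, 1 and 0 in the cultures of days 1, 3 and 7 alone, an alternative chosen after seeing the data. There Lgr6 and Ngfr had -0.29 and -0.55 on day 1, and Ngfr had -0.030 in the stricter class. For tdTomato-read cells DESeq2 called 1 gene; Lgr5 and Lgr6 had -0.092 and -0.29 on day 1 alone, Ngfr 0.36 on day 3 alone, and Lgr6 -0.10 to 0.43 without each culture.

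Replicate numbers recur on each day. Deviations of same-numbered cultures from their day correlated with r between -0.01 and 0.06 (9 pairs), and other pairs between -0.09 and 0.07, so the numbers were not taken as pairs. With the number as a replicate block, 0 genes were called on day 3 against day 1, 3 on day 7 against day 1 (Ngfr added, -2.91, adjusted p = 0.0133, edgeR) and 1 on day 7 against day 3, where Lgr5 had an adjusted p of 0.0722 and Ngfr a log2 fold change of -0.12. The few reads of Prox1 and the 37 to 86 retained cells per culture limit the shares.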
